A study of Mus musculus with 23 samples.

Results

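The conjugating enzymes of detoxification were taken as the protein-coding mouse genes whose symbols begin with Ugt1a, Ugt2, Sult, Gsta, Gstm, Gstp or Gstt. The rule used names alone and no measured value. It found 58 genes among the 21974 protein-coding genes of the count table: 9 Ugt1a, 10 Ugt2, 21 Sult, 4 Gsta, 7 Gstm, 3 Gstp and 4 Gstt genes. Another 8 genes with such symbols were not annotated as protein-coding and were left out.

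RNA from whole mouse jejunum, with fat and Peyer's patches removed, was sequenced in 23 libraries. Cpa3Cre/+ mice carry Cre in 1 copy of the Cpa3 locus, a mast cell gene, and are described by the submitters as lacking mast cells; Cpa3+/+ mice are the wild type. Both genotypes were sampled in 5 states: naive (untreated), immunized, and days 1, 3 and 5 of an oral challenge. Immunized mice had received 25 µg ovalbumin with 2 mg alum into the peritoneum on days 0 and 14. Challenged mice had been immunized in the same way and could then choose, from day 20, between a bottle of water and a bottle of water with 20% egg white and 8% sugar; their last bottle was given on day 20, 22 or 24. In the order naive, immunized, day 1, day 3 and day 5, there were 2, 2, 2, 2 and 3 libraries of Cpa3Cre/+ mice and 3, 2, 3, 2 and 2 of Cpa3+/+ mice. Of the 23 libraries, 18 came from females and 5 from males; the male libraries were Cpa3Cre/+ naive replicate 2, immunized replicate 1, day 1 replicate 2 and day 3 replicate 2, and Cpa3+/+ naive replicate 3. The labels give no strain or age, and do not say that each library is a separate mouse, so p-values measure the spread between libraries, which may be technical in part.

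Conjugation is the step of detoxification in which a lipophilic compound is joined to a polar group so that it can be exported. UDP-glucuronosyltransferases (the Ugt genes) sit in the endoplasmic reticulum and add glucuronic acid from UDP-glucuronic acid. Cytosolic sulfotransferases (Sult) add sulfate from the donor PAPS, and glutathione S-transferases (Gst) couple glutathione to electrophiles. In the small intestine these enzymes act on dietary compounds, drugs, bile acids and hormones as they cross the absorptive epithelium. The Ugt1a genes are built from separate first exons spliced to a common set of downstream exons, while the Ugt2b genes are separate neighbouring genes.

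The shallowest library held 5.48 M counts (M, mega), the deepest 19.34 M, and the median was 13.81 M. The Cpa3 level checked the genotypes: it was 0.1005 to 1.508 CPM (counts per M counts) in the 11 Cpa3Cre/+ libraries and 0.826 to 22.09 CPM in the 12 Cpa3+/+ libraries, a log2 fold change of -3.05 ± 0.40 (SE) over the 5 states that passed edgeR's quasi-likelihood test (adjusted p = 0.0102). 3 libraries stood apart from the rest on the principal components of all genes: Cpa3Cre/+ naive replicate 1, Cpa3Cre/+ day 5 replicate 3 and Cpa3+/+ day 1 replicate 2. The first held the lowest sum of 10 absorptive enterocyte markers (9745 CPM) and the highest sum of 5 smooth muscle markers (4771 CPM) of all 23 libraries, and the second held the highest enterocyte sum (99320 CPM). Pancreatic acinar markers reached at most 0.223 CPM in any library. Medians and calls that moved without the 3 libraries are given in both forms beside the results.

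Of the 58 genes, 34 had enough counts to be tested: all 4 Gsta, all 7 Gstm and all 3 Gstp genes, 3 of 4 Gstt, 7 of 21 Sult, 4 of 9 Ugt1a and 6 of 10 Ugt2 genes. In 11 genes no read was counted in any library. These were Sult1c1, Sult2a1 to Sult2a7, Sult3a1, Sult3a2 and Ugt2a2; the Sult2a enzymes sulfate hydroxysteroids and bile acids. A count of 0 in all 297.9 M counts allows a level of up to 0.0101 CPM over all libraries (3 counts), and of 0.149 CPM in the deepest to 0.496 CPM in the shallowest library; these limits cover counting error only. They do not cover reads dropped or credited to a copy: 93.6% of the 50-base stretches of the Ugt2a2 exons and 62.1% of those of Sult2a2 also occur in another gene. The other 13 genes had counts too low to test. Among them the largest totals over 23 libraries were 52 counts for Sult5a1, 40 for Ugt1a6b, 38 for Ugt2b1 and 25 for Ugt1a8, and the oestrogen sulfotransferase Sult1e1 had 5.

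The most abundant members came from 4 families. Levels of different genes are compared per kilobase of exon, as mean CPM per kilobase over the 23 libraries. Gstm1 led with 230.2, followed by Ugt2b34 (222.2), Sult1b1 (170.1), Gstp1 (167.1), Gstm2 (164.5) and Sult1d1 (147.4). The order depends on the exon length used, which was 1473 bases for Gstm1 and 4312 for Ugt2b34. By mean CPM, not divided by length, Ugt2b34 led with 958.2, and Gstm1 had 339. Gstm and Gstp enzymes conjugate glutathione to a wide range of electrophiles. SULT1B1 sulfates thyroid hormones and small phenols, and mouse Sult1d1 sulfates catecholamines. For the Ugt1a genes, whose downstream exons are common to the cluster, the level was taken per kilobase of exon not shared on the same strand: it was 137.2 for Ugt1a1, the enzyme that glucuronidates bilirubin, 107.8 for Ugt1a7c, 7.161 for Ugt1a9 and 4.592 for the phenol-conjugating Ugt1a6a. Over the 385 bases not shared on either strand Ugt1a1 had 325.5, above Gstm1. Its place therefore depends on the strand setting of the counting, which is not known. How reads in the common exons were counted is not given in the sources used here. Ugt1a10, which has the same common exons, had 2 counts in all libraries, so those reads were not credited to every member.

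**Figure D1:**
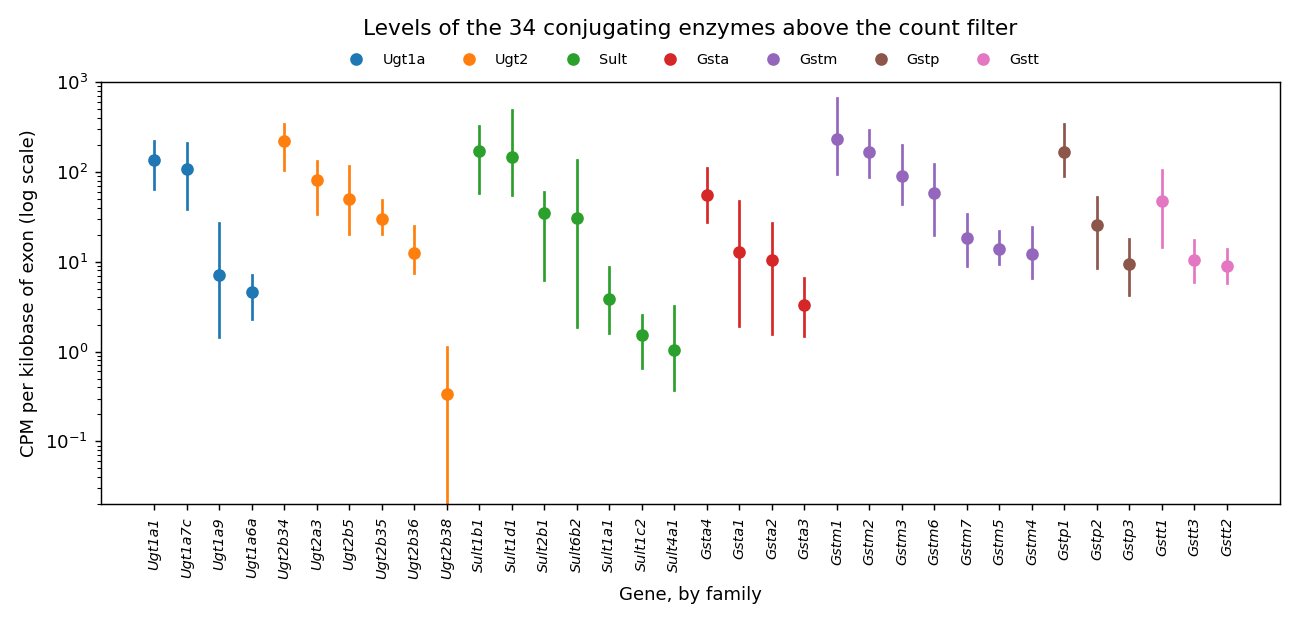
Mean level of each of the 34 tested conjugating enzymes over 23 libraries (points), in CPM per kilobase of exon on a log axis, grouped and coloured by family; lines run from the lowest to the highest library, and Ugt1a levels use exon not shared on the same strand. The top members of the Ugt1a, Ugt2, Sult, Gstm and Gstp families lay between 137.2 and 230.2, while Ugt2b38 averaged 0.334 and its lowest library (0) is off the axis.

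Within families the range was wide. In the Ugt2 family, which conjugates steroids, bile acids and drugs, the level per kilobase after Ugt2b34 was 81.16 for Ugt2a3, 49.32 for Ugt2b5, 29.56 for Ugt2b35, 12.59 for Ugt2b36 and 0.334 for Ugt2b38. Among the Sult genes, Sult2b1, a cholesterol sulfotransferase, had 35.13 and Sult6b2 had 30.59, against 3.886 for the phenol sulfotransferase Sult1a1, 1.535 for Sult1c2 and 1.038 for Sult4a1, which is known from neurons. Among the Gsta genes, Gsta4, which conjugates the lipid peroxidation product 4-hydroxynonenal, led with 55.86, and Gsta3, whose mouse enzyme conjugates the epoxide of aflatoxin, had 3.335. Gstt1, which acts on small halogenated compounds, had 47.66, against 10.47 for Gstt3 and 9.056 for Gstt2. Sequence shared between copies limits several of these values: 90.5% of the 50-base stretches of the Gsta1 exons also occur in another gene, as do 49.8% in Gsta2, 54.3% in Gstp2 and 41.7% in Ugt2b5, so reads may have been split between copies or dropped.

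Promoter sequence was searched for the letters of 4 groups of factors. RefSeq promoters on GRCm38.p6, from 250 bases before to 50 bases after the start, were found for 51 of the 58 genes, and letters were searched on both strands. The core of the antioxidant response element (TGACNNNGC), the site of the stress-responsive factor NRF2 through which many Gst genes are known to be regulated, occurs in 5.9% of the members' promoters, against 13.99% of 27025 genes with a promoter. The core bound by the aryl hydrocarbon receptor (GCGTG) occurs in 21.6%, against 35.15%. The letters of CDX factors (TTTATNG) occur in 13.7%, against 12.53%. Those of the zinc finger family of GATA factors were searched as AGATAA and occur in 19.6%, against 12.7%. Neighbouring members share sequence, so their promoters are not independent.

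Among the 31 tested members with a promoter, the antioxidant response element core was found in 3, all of them Gst genes: Gsta3, Gstm5 and Gstm7. The stretches of Gsta3 and Gstm7 that hold it are shown here 5′ to 3′ on the gene's strand, with the matching letters in capitals, because these enzymes are of the family for which that element is best known; the promoter of Gstm5 stands beside its values.
Gsta3: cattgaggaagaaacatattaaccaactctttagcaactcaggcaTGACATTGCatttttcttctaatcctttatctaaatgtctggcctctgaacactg
Gstm7: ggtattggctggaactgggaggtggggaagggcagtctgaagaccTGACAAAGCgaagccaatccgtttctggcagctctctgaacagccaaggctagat

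On GRCm38.p6 these stretches are chr1:21240419-21240518 (plus strand) for Gsta3 and chr3:107931689-107931788 (minus) for Gstm7. The match lay 112 bases before the start in Gsta3 and 120 in Gstm7. Gsta3 was a low member per kilobase of exon (3.335 CPM). Its mean CPM, not divided by length, was 14.49, between those of Gsta2 (12.33) and Gsta4 (70.71). Gstm7 had 18.24 CPM per kilobase. Ugt2b34, Gstm1 and Sult1b1, the most abundant members per kilobase, have no such match in this window.

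Differences between libraries of the same group were large. For 33 of the 34 tested members the SD within groups exceeded the SD of the 10 group means on the log2 scale. Means of 2 or 3 libraries spread less than single libraries even where groups do not differ. The comparison is therefore no measure of group differences. Among members with counts in every library Sult6b2 varied most, by 70.92-fold between its lowest library (4.101 CPM) and its highest (290.8 CPM), followed by Gsta1 (24.44-fold), Ugt1a9 (18.96-fold), Gsta2 (17.37-fold) and Sult2b1 (9.744-fold). Ugt2b38 is not ranked, since its lowest library had 0 counts and its highest 2.109 CPM. Gstm5 (2.341-fold), Ugt2b35 (2.37-fold) and Gstt2 (2.382-fold) varied least. A few libraries set the extremes: Cpa3Cre/+ naive replicate 1 was the lowest library for 20 of the 34 members, Cpa3Cre/+ day 5 replicate 3 was the highest for 14, and Cpa3+/+ day 1 replicate 2 was the highest for 7. In naive Cpa3Cre/+ jejunum the summed level of the members was 1894 CPM in replicate 1 and 5489 CPM in replicate 2, a female and a male library.

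**Figure D2:**
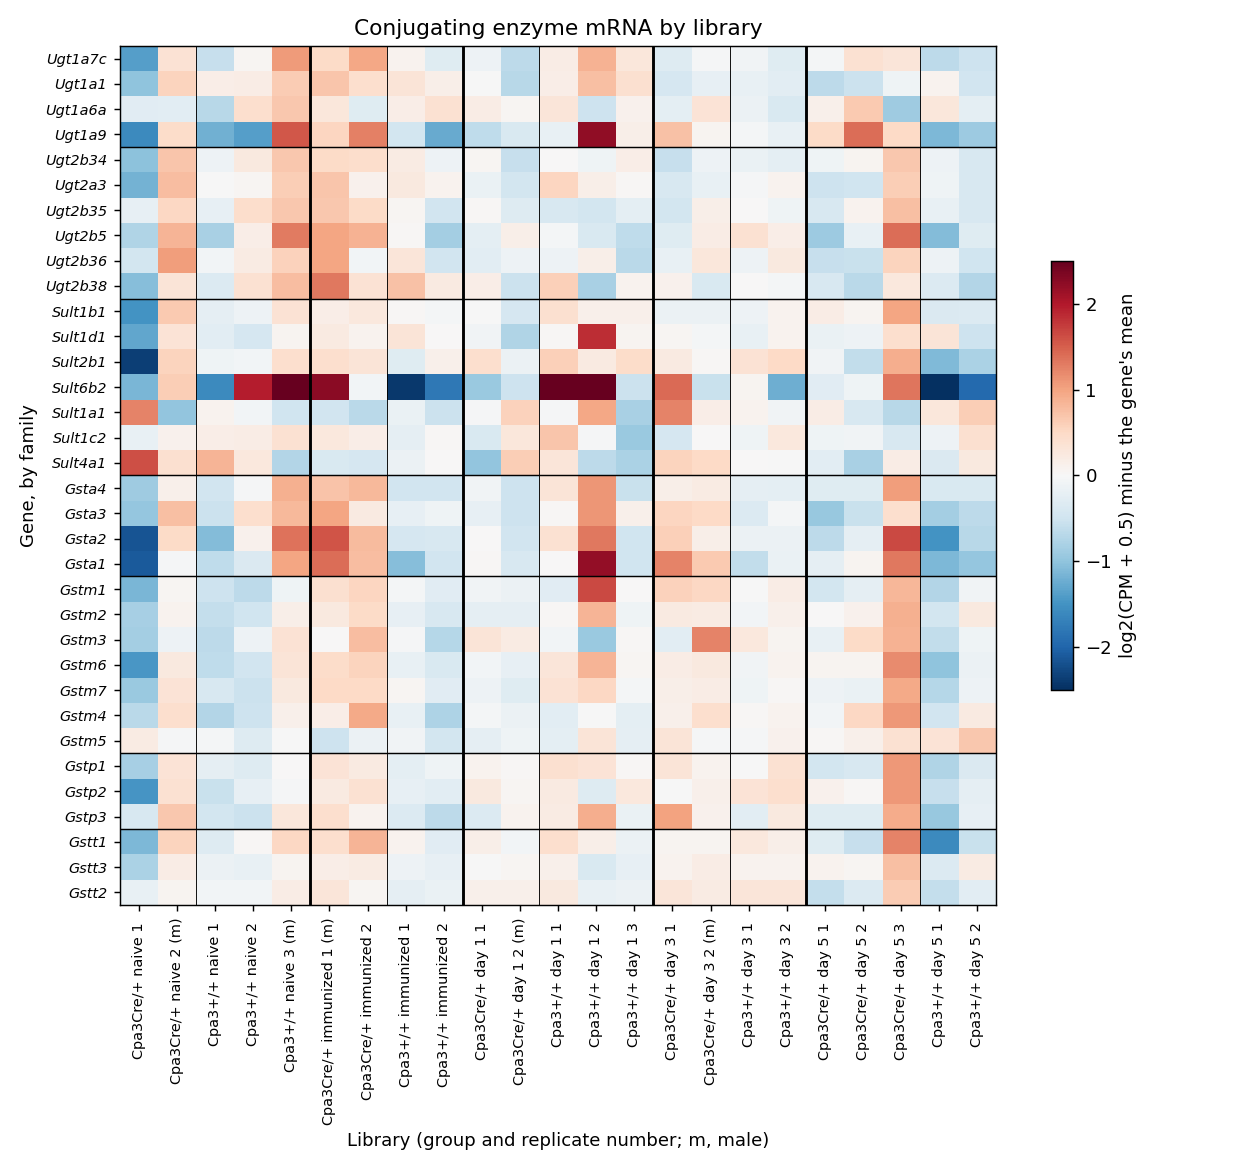
Level of each of the 34 tested members (rows, by family) in each of the 23 libraries (columns, by state, with Cpa3Cre/+ left of Cpa3+/+ in each state), as log2(CPM + 0.5) minus the gene's mean over all libraries; the colour scale stops at 2.5 in either direction. Cpa3Cre/+ naive replicate 1 is low in most rows and Cpa3Cre/+ day 5 replicate 3 is high in most rows, while Sult1a1 and Sult4a1 are highest or nearly so in Cpa3Cre/+ naive replicate 1.

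Across the 23 libraries most members moved with the summed level of absorptive enterocyte markers. That sum is not scaled by marker, so abundant markers such as Apoa4 weigh most in it. The sum of 10 enterocyte markers (Alpi, Sis, Vil1, Apoa1, Apoa4, Fabp1, Fabp2, Slc5a1, Lct and Anpep), none of them a member, was compared with each member on a log2 scale, and likewise the sum of 5 smooth muscle markers, giving 68 relations with permutation p-values adjusted over all of them. With enterocyte markers, 30 of 34 members had a positive Pearson r and 24 passed for both Pearson's r (0.53 to 0.948) and Spearman's rho (0.526 to 0.903). These 24 included all 4 Gsta and all 3 Gstp genes. The same 24 stayed positive, at 0.49 to 0.856, without the libraries farthest from the median of the marker sum (Cpa3Cre/+ naive replicate 1 and Cpa3+/+ day 5 replicate 1), and were at 0.531 to 0.951 in the 18 female libraries; the 5 male libraries are too few for a value. After group means were removed they ran from 0.504 to 0.969, and without the 3 libraries apart from 0.391 to 0.901. An r above 0.5 was seen for 76.5% of the members and 18.9% of all 17236 genes tested.

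Sult2b1 followed the enterocyte markers most closely, with r = 0.948 and rho = 0.854 (adjusted permutation p = 7.6e-05 and 0.00017), and r = 0.856 without the 2 farthest libraries. Its level was 24.46 CPM in Cpa3Cre/+ naive replicate 1 and 238.3 CPM in Cpa3Cre/+ day 5 replicate 3, the libraries with the lowest and the highest marker sum. Sult1b1 had r = 0.905 and rho = 0.844 (adjusted permutation p = 7.6e-05 and 0.00023), and r = 0.802 without the 2 farthest libraries. Gstt1 had r = 0.861 and rho = 0.903 (adjusted permutation p = 7.6e-05 and 0.00017), and r = 0.854 without them. Sult1a1 ran the other way with r = -0.575 and rho = -0.565 (adjusted permutation p = 0.0077 and 0.014), and r was -0.407 without the 2 farthest libraries. Sult1a1 and Sult4a1 were related positively to the smooth muscle markers. For Sult1a1 that r was 0.628 and rho 0.598 (adjusted permutation p = 0.0042 and 0.0083), and r was 0.369 without the 2 libraries farthest in that sum. For Sult4a1 r was 0.769 and rho 0.712 (adjusted permutation p = 0.00016 and 0.0011), and r was 0.637 without them. With smooth muscle markers 9 members passed in the negative direction, at r from -0.823 to -0.508 and from -0.725 to -0.216 without the 3 libraries apart. An r under -0.5 was seen for 38.2% of the members and 8.7% of all genes. Ugt1a7c had the lowest r (r = -0.823, rho = -0.762, adjusted permutation p = 7.6e-05 and 0.00043; r = -0.771 without the 2 farthest libraries). Gstm5 did not pass in relation to enterocyte markers (r = -0.27, rho = -0.168, adjusted permutation p = 0.23 and 0.48; r = -0.532 without the 3 libraries apart), nor did Ugt1a6a (r = -0.0644, rho = -0.156, adjusted permutation p = 0.78 and 0.51). In bulk tissue, fewer cells of a type and less RNA per cell cannot be told apart.

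**Figure D3:**
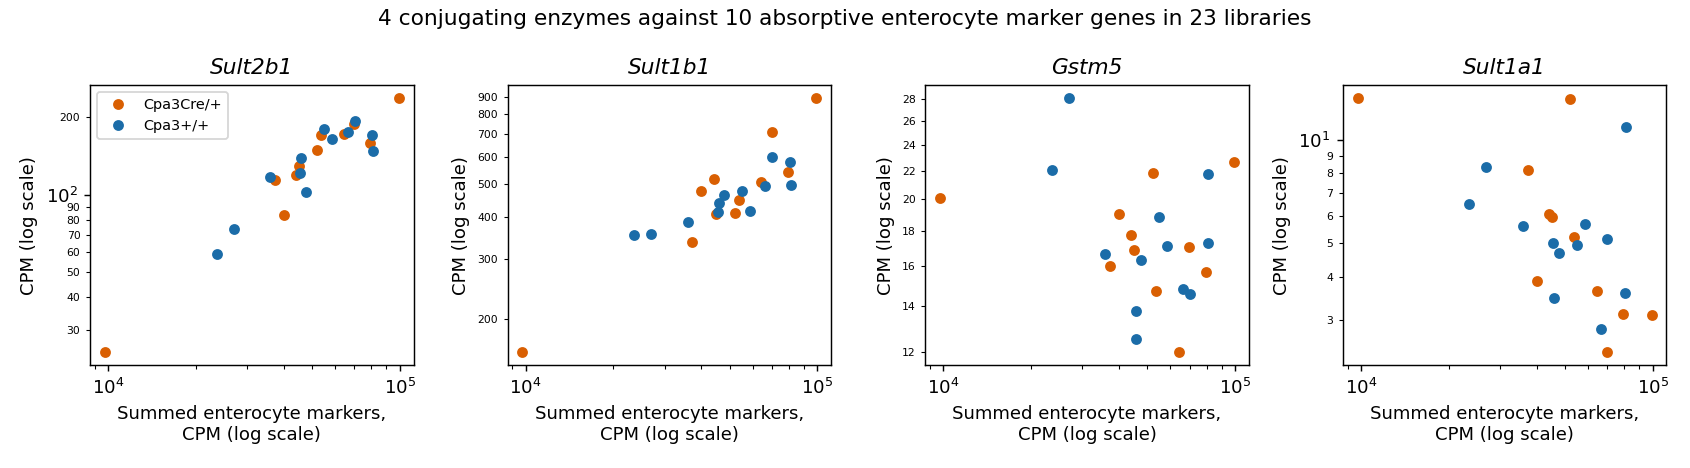
Level of Sult2b1, Sult1b1, Gstm5 and Sult1a1 (vertical axes, CPM, log scale) against the summed level of 10 absorptive enterocyte markers (horizontal axes, CPM, log scale) in 23 libraries, coloured by genotype. Sult2b1 and Sult1b1 climb with the markers (r = 0.948 and 0.905), Gstm5 has r = -0.27 (-0.532 without the 3 libraries apart) and Sult1a1 is higher where the markers are low (r = -0.575).

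No member passed the test in any comparison of genotypes. Cpa3Cre/+ was compared with Cpa3+/+ over the 5 states and within each state, with edgeR's quasi-likelihood test and p-values adjusted over 17236 genes at a threshold of 0.05. Averaged over the states, 0 of 34 members were called (0.029% of all genes were called, all of them lower), 0 had an unadjusted p under 0.05 (1.12% of all genes) and DESeq2 also called 0. The median log2 fold change of the members was 0.0882, with 21 of 34 above 0. For this average the 95% interval reached a median of 0.443 to each side and lay within 1 log2 unit of 0 for 29 of the 34 members. The 2 members with the smallest p were Ugt1a1 (-0.35 ± 0.17, SE) and Gstm4 (0.38 ± 0.19), both with an adjusted p of 1. Over the 5 states, differences of more than 2-fold were therefore outside the interval for those 29 members, and the interval was narrowest at 0.249 to each side.

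Within states the members leaned one way and then the other, without a call. The median log2 fold change of the 34 members, Cpa3Cre/+ over Cpa3+/+, was -0.297 in the naive state, 0.409 after immunization, -0.516 on day 1, -0.0513 on day 3 and 0.684 on day 5, while the median of all genes stayed between -0.0306 and 0.0475. In each state 0 members were called, as were 0% of all genes, and DESeq2 called 0 members in each. The number of members with an unadjusted p under 0.05 was 1 in the naive state (5.35% of all genes), 2 after immunization (0.951%), 6 on day 1 (7.39%), 0 on day 3 (1.55%) and 8 on day 5 (9.26%). The 6 of day 1 were all lower in Cpa3Cre/+ (3.74% of all genes were): Gsta3, Sult1d1, Sult6b2, Ugt1a1, Ugt1a7c and Ugt1a9. The 8 of day 5 were all higher (5.7% of all genes were): Gsta1, Gsta2, Gstm6, Gstp2, Gstt1, Sult2b1, Sult6b2 and Ugt1a9. The enterocyte marker sum differed in the same directions: it was 64290 and 79360 CPM in immunized Cpa3Cre/+ libraries, against 47790 and 45880 CPM in Cpa3+/+ libraries. On day 1 it was 53720 and 37300 CPM in Cpa3Cre/+, against 70050, 81120 and 66340 CPM in Cpa3+/+. On day 5 it was 44160, 40040 and 99320 CPM in Cpa3Cre/+, against 23560 and 26940 CPM in Cpa3+/+. In these 3 states the genotypes did not overlap in the marker sum, and its part in the member differences was not tested.

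**Figure D4:**
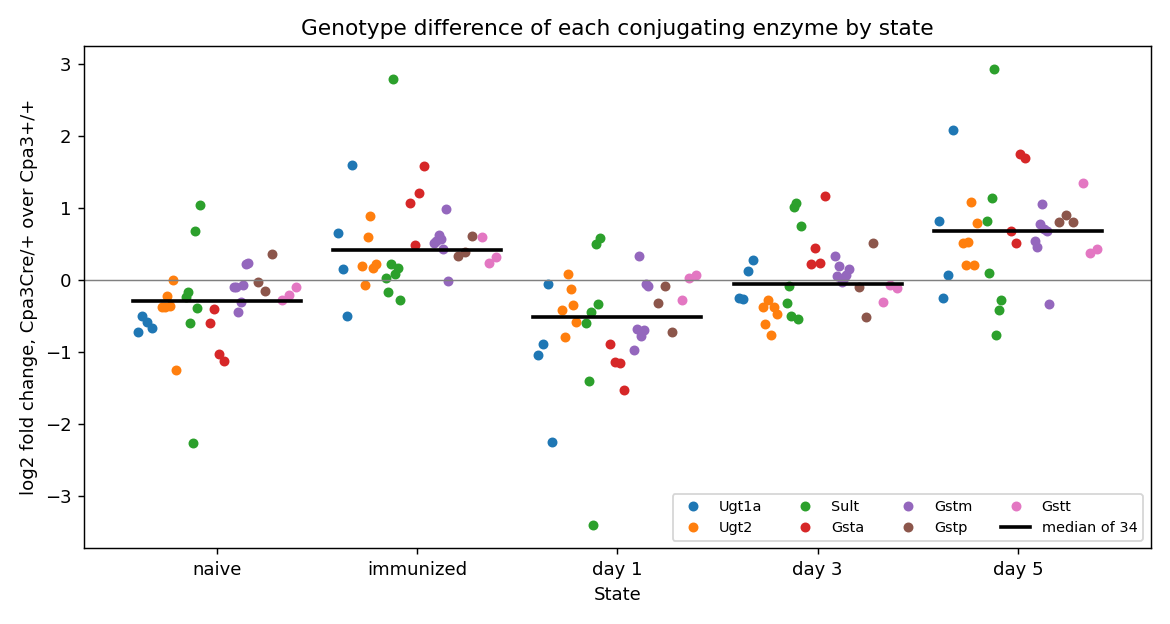
Log2 fold change, Cpa3Cre/+ over Cpa3+/+, of each of the 34 tested members (points, coloured by family) in each of the 5 states, with the median of the members as a black bar and 0 as a grey line. The medians are -0.297, 0.409, -0.516, -0.0513 and 0.684 from naive to day 5, and no point passed the adjusted test.

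Without the 3 libraries apart, the genotype medians were 0.165 in the naive state, 0.468 after immunization, -0.29 on day 1, 0.0636 on day 3 and 0.14 on day 5. The naive median changed sign. It then rested on 1 Cpa3Cre/+ library, a male one, and the library lowest in enterocyte markers was left out. The cause of the change in sign was not tested. The day 5 median was 0.14 without the 3 libraries and 0.684 with them. The immunized groups hold none of the 3 libraries. There, 26 of the 34 members (76.5%) were higher in both Cpa3Cre/+ libraries than in both Cpa3+/+ libraries, against 24.9% of all genes. On day 1, 10 members (29.4%) were lower in every Cpa3Cre/+ library than in every Cpa3+/+ library, against 9.57% of all genes. Members higher in every Cpa3Cre/+ library numbered 12 on day 3 (35.3%, against 17.6% of all genes) and 11 on day 5 (32.4%, against 15.2%). On day 3 the reverse held for Gstp2, Gstt1, Sult1b1, Sult2b1 and Ugt2a3, lower in both Cpa3Cre/+ libraries than in both Cpa3+/+ ones. The share of all genes lower in this way is not given here, so that pattern cannot be read as particular to the members. The log2 fold change on that day was below 0 for 18 of the 34 members. Counts in the other direction are otherwise not given here. In the naive state 1 member was lower without overlap (2.94%, against 4.54%). The counts without overlap compare libraries directly and hold no sex term. After immunization and on days 1 and 3, 1 Cpa3Cre/+ library of each state was male and all Cpa3+/+ libraries were female. The part of sex in these counts was not tested.

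By family, the immunized difference was largest in the Gsta genes, with a median log2 fold change of 1.13 and all 4 above 0, followed by Gstm (0.54, 6 of 7 above 0), Ugt1a (0.398, 3 of 4), Gstp (0.388, 3 of 3) and Gstt (0.311, 3 of 3); it was 0.208 in Ugt2 and 0.083 in Sult. On day 1 the Gsta median was -1.15 and the Ugt1a median -0.972, with none of either family above 0. On day 5 the Gsta median was 1.19 and the Gstp median 0.805, with all members of both above 0. The summed Gsta level on day 5 was 73.92, 80.07 and 210.3 CPM in Cpa3Cre/+, against 64.49 and 68.93 CPM in Cpa3+/+, the highest being the library apart. On day 5 the Gsta median was 0.361 and the Gstp median 0.229 without the 3 libraries, and on day 1 the Gsta median was -0.394 and the Ugt1a median -0.681. After immunization the Gsta median was 1.21 in that setting. These are the states in which the enterocyte marker sums of the genotypes did not overlap. None of these members passed the adjusted test.

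Sult6b2 had the smallest or second smallest p of the members in 4 of the 5 states. In the naive state it had 14.91 and 51.66 CPM in Cpa3Cre/+, against 10.9, 133.2 and 290.8 CPM in Cpa3+/+. After immunization it had 163.3 and 32.12 CPM in Cpa3Cre/+, against 5.934 and 9.478 CPM in Cpa3+/+. Libraries of 1 group thus differed widely in the naive state, and the groups overlapped there and not after immunization. On day 1 it had 17.42 and 23.49 CPM in Cpa3Cre/+, against 200.4, 223.2 and 23.23 CPM in Cpa3+/+, and on day 3 it had 90.3 and 22.74 CPM in Cpa3Cre/+, against 35.52 and 14.22 CPM in Cpa3+/+. On day 5 it had 27.52, 31.42 and 85.58 CPM in Cpa3Cre/+, against 4.101 and 8.408 CPM in Cpa3+/+. The log2 fold change was -2.26 ± 1.05 in the naive state, 2.79 ± 1.22 after immunization, -3.41 ± 1.14 on day 1 and 2.93 ± 1.11 on day 5 (SE), with adjusted p of 0.9, 1, 0.635 and 0.523. Its response to the challenge had the smallest p of the members for a difference between genotypes over the 3 days jointly (unadjusted p = 0.00343 by edgeR, adjusted p = 0.797).

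Other members with the smallest p in a state differed less. Gstm4 had 21.89 and 37.84 CPM in immunized Cpa3Cre/+ libraries, against 17.04 and 11.18 CPM in Cpa3+/+ libraries (log2 fold change 0.98 ± 0.41, adjusted p = 1 by edgeR). Without Cpa3Cre/+ immunized replicate 2 that difference was -0.011. Sult1d1 had 312.6 and 197.1 CPM in Cpa3Cre/+ on day 1, against 342.1, 1200 and 348.5 CPM in Cpa3+/+ (-1.41 ± 0.53, adjusted p = 0.635); the value of 1200 CPM is that of a library apart. Gstt1 had 54.21, 45.23 and 159.6 CPM in Cpa3Cre/+ on day 5, against 22.03 and 45.57 CPM in Cpa3+/+ (1.35 ± 0.50, adjusted p = 0.523), and the groups overlapped. Sult4a1 in the naive state (1.04 ± 0.60), and Sult1a1 (1.07 ± 0.62) and Gsta1 (1.17 ± 0.79) on day 3, had the other smallest p, with adjusted p of 0.9, 1 and 1.

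**Figure D5:**
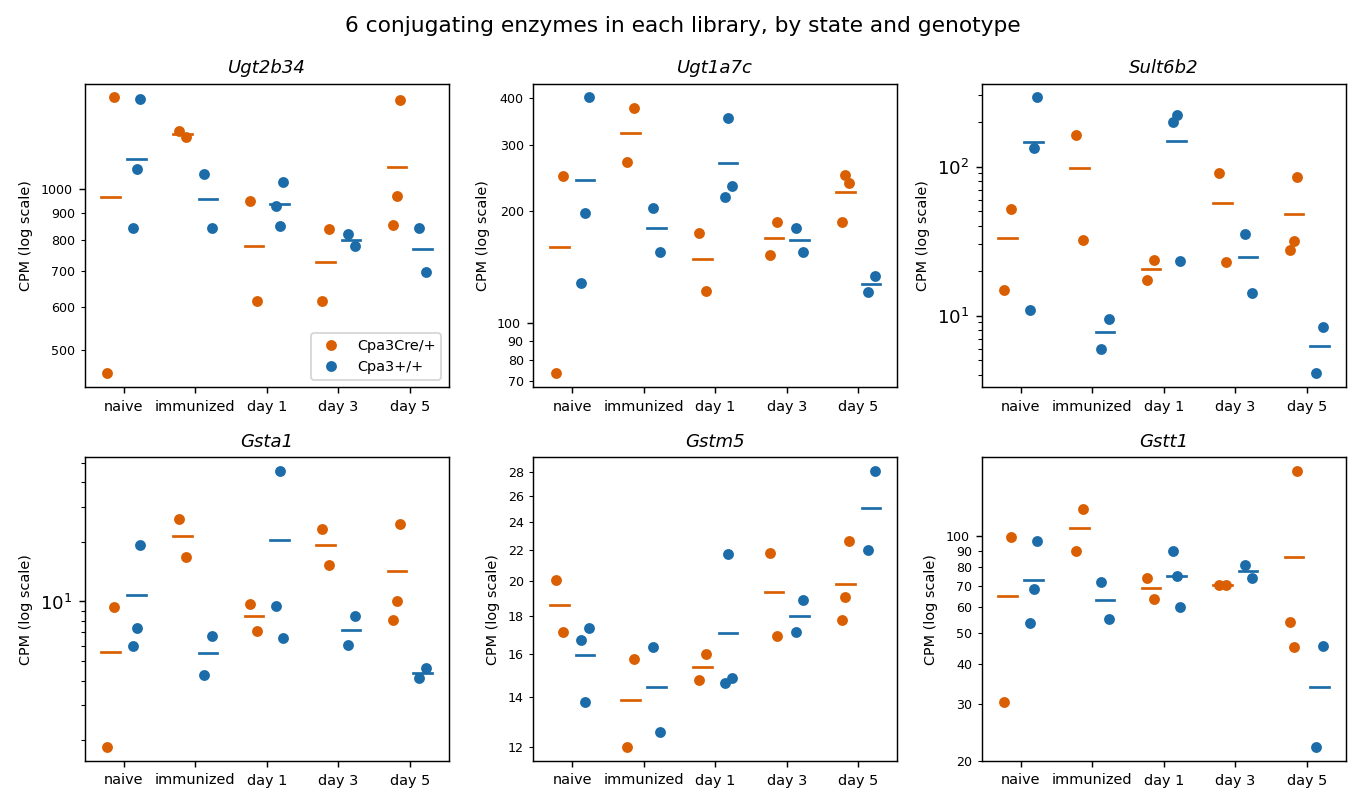
Level of 6 members in every library (points, CPM on a log scale) by state, with Cpa3Cre/+ left of Cpa3+/+ and bars at the group means. Sult6b2 spans 4.101 to 290.8 CPM, Gsta1 is higher in both immunized Cpa3Cre/+ libraries than in both Cpa3+/+ libraries, and Gstm5 is highest on day 5.

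Immunization against naive gave no called member either. Averaged over genotypes, 0 of 34 members were called, as were 0% of all genes; 1 had an unadjusted p under 0.05 (10.9% of all genes did), and DESeq2 called 0. The median log2 fold change of the members was 0.302, with 29 of 34 above 0, and 0.0192, with 20 above 0, without the 3 libraries apart. By genotype it was 0.678 in Cpa3Cre/+, with 31 of 34 above 0, and -0.065 in Cpa3+/+, with 14 above 0. Within Cpa3Cre/+, 7 members had an unadjusted p under 0.05 (13.1% of all genes): Gsta1, Gsta2, Gsta4, Gstm3, Gstm6 and Ugt1a7c were higher after immunization (4.5% of all genes) and Sult4a1 was lower (8.64%). Ugt1a7c had 269 and 376.3 CPM in immunized Cpa3Cre/+ libraries, against 73.57 and 246.8 CPM in naive ones (log2 fold change 1.20 ± 0.46, adjusted p = 0.319 by edgeR). Gsta1 had 25.89 and 16.71 CPM, against 1.851 and 9.348 CPM (2.06 ± 0.81, adjusted p = 0.323). In both genes the lower naive value is that of replicate 1, the library lowest in enterocyte markers. Without the 3 libraries apart the median was 0.229 in Cpa3Cre/+ and -0.155 in Cpa3+/+. In Cpa3+/+ the smallest p was that of Sult6b2 (-3.59 ± 1.17, adjusted p = 1), 0% of all genes were called and 1 member had an unadjusted p under 0.05 (1.69% of all genes). Ugt2b35 was the next (-0.41). Averaged over genotypes, the smallest p belonged to Sult4a1 (-1.07 ± 0.47, adjusted p = 0.42) and Gstm7 (0.49 ± 0.26).

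The challenge was compared with the immunized state on each day. Averaged over genotypes, 0 of 34 members were called by edgeR on days 1, 3 and 5, while 0%, 0% and 1.94% of all genes were called; 0, 2 and 3 members had an unadjusted p under 0.05 (3.16%, 9.58% and 17.3% of all genes). DESeq2 called 0 members on days 1 and 3 and 1 on day 5. The members' median log2 fold change was -0.0647 on day 1, -0.0327 on day 3 and -0.133 on day 5. Leaving out the 3 libraries apart gave -0.206, -0.0583 and -0.392 on these days, with 11, 16 and 7 of 34 above 0. Gstm5 was the member closest to a call. It had 17.77, 19.05 and 22.67 CPM in Cpa3Cre/+ on day 5, against 12 and 15.72 CPM in immunized Cpa3Cre/+ libraries. In Cpa3+/+ it had 22.03 and 28.09 CPM on day 5, against 16.35 and 12.56 CPM after immunization. All 5 day 5 libraries were above all 4 immunized libraries, and day 3 values (16.92 to 21.83 CPM) were also above the immunized ones. Naive libraries had 20.07 and 17.09 CPM in Cpa3Cre/+, and 16.69, 13.8 and 17.3 CPM in Cpa3+/+. The naive level thus overlapped days 3 and 5 in Cpa3Cre/+, whose immunized group was the lowest of all groups for Gstm5. In Cpa3+/+ the naive values lay below those of day 5 and overlapped the immunized ones. The log2 fold change on day 5 was 0.63 ± 0.18 (95% interval 0.26 to 1.00), with an adjusted p of 0.074 by edgeR and 0.0259 by DESeq2. It was 0.57 without the 3 libraries apart, where it passed. The deposited counts may include reads of the antisense gene 4933431E20Rik, which overlaps Gstm5 in 178 bases.

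The promoter of Gstm5 is shown because it is the only tested member with both an antioxidant response element core and cores bound by the aryl hydrocarbon receptor. The capitals mark an antioxidant response element core 33 bases before the start, which overlaps 1 aryl hydrocarbon receptor core, and a further receptor core 166 bases before the start (RefSeq, GRCm38.p6, chr3:107895604-107895853, plus strand).
Gstm5: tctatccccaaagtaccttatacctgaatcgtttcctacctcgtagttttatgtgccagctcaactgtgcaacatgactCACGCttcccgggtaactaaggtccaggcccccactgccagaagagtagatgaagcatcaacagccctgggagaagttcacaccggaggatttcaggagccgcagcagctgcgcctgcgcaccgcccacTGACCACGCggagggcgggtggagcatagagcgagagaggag

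Ugt1a1 had log2 fold changes opposite in sign to those of Gstm5 on the later days. On day 5 it had 75.7, 81.66 and 110.6 CPM in Cpa3Cre/+, against 192.5 and 160.2 CPM in immunized Cpa3Cre/+ libraries. In Cpa3+/+ it had 126.9 and 85.28 CPM on day 5, against 148.2 and 131.2 CPM after immunization. The day 5 libraries lay below the immunized ones in each genotype. The log2 fold change over genotypes was -0.66 ± 0.26 on day 3 (adjusted p = 0.496 by edgeR) and -0.60 ± 0.25 on day 5 (adjusted p = 0.221). Ugt2b38 differed by -1.83 ± 0.71 on day 5 (adjusted p = 0.186), at levels of 0.1335 to 0.7524 CPM on day 5, against 0.7291 to 2.109 CPM after immunization. On day 1 the members with the smallest p were Sult1a1 (0.82) and Ugt2b35 (-0.43), both with an adjusted p of 1.

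Without the 3 libraries apart, 9 members passed on day 5 against immunized (26.5%), as did 18.6% of all genes. Gstm5 was higher, by 0.57. Lower on day 5 were Ugt2b38 (-2.32), Gstt1 (-1.0), Gsta3 (-0.93), Sult2b1 (-0.79), Ugt1a1 (-0.76), Ugt2a3 (-0.60), Gstp1 (-0.54) and Gstt2 (-0.42). The adjusted p ran from 0.0058 to 0.024. The enterocyte marker sum was also lower on day 5 in the libraries left, at 44160 and 40040 CPM in Cpa3Cre/+ and 23560 and 26940 CPM in Cpa3+/+, against 45880 to 79360 CPM in the 4 immunized libraries. The markers did not all move alike in Cpa3Cre/+. Apoa4 had 9838 and 9068 CPM on day 5 in the libraries left, against 19610 and 33550 CPM after immunization. Apoa1 had 5315 and 4334 CPM, against 11160 and 11180 CPM. Sis was higher, with 5282 and 5032 CPM, against 4042 and 4240 CPM, and Fabp1 overlapped between the states. The part of the marker sum in these differences was not tested. The estimated biological coefficient of variation was 20% without the 3 libraries and 28.6% with them.

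Within genotypes the members' medians on day 1 had opposite signs. Day 1 against immunized gave a median log2 fold change of -0.631 in Cpa3Cre/+, with 4 of 34 above 0, and of 0.304 in Cpa3+/+, with 27 above 0; day 3 gave -0.292 and 0.265, and day 5 gave -0.00278 and -0.252. The day 5 median in Cpa3Cre/+ rests on replicate 3, a library apart: without the 3 libraries it was -0.512, with 4 of 34 above 0, against 17 with them. In that setting day 1 gave -0.605 in Cpa3Cre/+ and 0.219 in Cpa3+/+. The comparisons of the 3 days within a genotype share their immunized libraries. In Cpa3Cre/+, 25 members (73.5%) were lower in both day 1 libraries than in both immunized ones, against 21.1% of all genes. The same count was 18 on day 3 (52.9%, against 26%) and 4 on day 5 (11.8%, against 12.9%). In Cpa3+/+, 10 members (29.4%) were higher in every day 1 library than in both immunized ones, against 13.2% of all genes, and 19 were higher on day 3 (55.9%, against 33.2%). On day 5, 12 were lower (35.3%, against 24.2%). Counts in the other direction are not given here. No member was called by edgeR: in Cpa3Cre/+ 0% of all genes were called on days 1 and 3 and 0.0348% on day 5, and 2, 4 and 1 members had an unadjusted p under 0.05 (2.12%, 4.31% and 9.74% of all genes). In Cpa3+/+ 0% were called on each day, and 3, 0 and 1 members had such a p (5.37%, 4.93% and 9.3%). DESeq2 called 1 of these, Sult6b2 on day 1 in Cpa3+/+ (adjusted p = 0.04999, against 0.848 by edgeR, log2 fold change 4.27 ± 1.18).

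The members with the smallest p within a genotype were mostly those named already. In Cpa3Cre/+ they were Ugt1a7c (-1.12) and Ugt1a1 (-0.82) on day 1, Ugt1a1 (-0.87) and Sult1a1 (1.36) on day 3, and Ugt1a1 (-0.79) and Gstm5 (0.46) on day 5, with adjusted p between 0.472 and 0.991. In Cpa3+/+ they were Sult6b2 and Gsta1 (1.89) on day 1, Gstt2 (0.51) and Gstp2 (0.63) on day 3, and Gstm5 (0.79 ± 0.25) and Ugt2b38 (-2.11) on day 5. The adjusted p for Gstm5 there was 0.343 by edgeR.

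The difference between the genotypes' responses to the challenge, over the 3 days jointly, was called for 0 members and 0% of all genes; 6 members had an unadjusted p under 0.05 (4.62% of all genes), namely Sult6b2, Ugt1a9, Gsta1, Gsta4, Gstm6 and Ugt1a7c. The opposite medians of the genotypes were thus not shown to differ for any single member. Any difference among the 10 groups was called for 0 members and 0.0928% of all genes, with 2 members at an unadjusted p under 0.05 (10.8%), Sult6b2 (adjusted p = 0.298) and Gsta1 (adjusted p = 0.448). DESeq2 called Sult6b2 there (adjusted p = 0.00914) and no other member.

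By group means, Cpa3Cre/+ immunized libraries were the highest of the 10 groups for 19 of the 34 members. The lowest group was Cpa3+/+ day 5 for 14 members and Cpa3Cre/+ naive for 10. The summed level of the members after immunization was 5384 ± 44 CPM in Cpa3Cre/+ and 3785 ± 419 CPM in Cpa3+/+ (SD, n = 2 each). On day 5 it was 4745 ± 1838 CPM in Cpa3Cre/+ (n = 3) and 3153 ± 54 CPM in Cpa3+/+ (n = 2).

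For the abundant enzymes the genotypes overlapped in some states and not in others. Ugt2b34, the most abundant glucuronosyltransferase, had 451.5 and 1481 CPM in naive Cpa3Cre/+ libraries, against 843.8, 1086 and 1474 CPM in naive Cpa3+/+ ones. After immunization it had 1280 and 1251 CPM in Cpa3Cre/+, against 1066 and 845.3 CPM in Cpa3+/+, with no overlap. On day 1 it had 946.5 and 616.6 CPM in Cpa3Cre/+, against 927.2, 852.7 and 1027 CPM in Cpa3+/+. On day 3 it had 616.2 and 840.2 CPM in Cpa3Cre/+, against 823 and 779.6 CPM in Cpa3+/+, and on day 5 it had 856.4, 969.6 and 1466 CPM in Cpa3Cre/+, against 842.5 and 697.4 CPM in Cpa3+/+, again with no overlap. Sult1b1 did not overlap either after immunization, with 506.1 and 541.7 CPM in Cpa3Cre/+, against 462.8 and 439.4 CPM in Cpa3+/+. On day 5 Sult1b1 had 515.9, 476.9 and 894.6 CPM in Cpa3Cre/+, against 353.8 and 356.7 CPM in Cpa3+/+. The genotype difference of Ugt2b34 averaged over states was -0.09 ± 0.19 on the log2 scale, with a 95% interval from -0.50 to 0.31. The same average was -0.06 ± 0.21 for Sult1b1, 0.06 ± 0.25 for Gstm1, 0.14 ± 0.20 for Gstp1 and -0.01 ± 0.12 for Gstm5, each with an adjusted p of 1 by edgeR.

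The genes around the conjugating enzymes that are reported here gave no call by edgeR with all libraries. The tested members of other lists were 13 genes of cosubstrate supply, 13 other conjugating enzymes, 9 genes of conjugate removal, 10 efflux transporters, 15 NRF2 targets, 4 AHR targets, 10 PXR and CAR targets, and 15 xenobiotic sensors and intestinal transcription factors, 84 genes when each is counted once. By edgeR 0 of the 84 were called in any of the 20 comparisons, and 0 to 13 had an unadjusted p under 0.05. The 13 (15.5%) were in the genotype comparison on day 5, where 9.26% of all genes had such a p; on day 5 against immunized over genotypes it was 7 (8.33%, against 17.3%). DESeq2 called Ppara on day 5 against immunized over genotypes, Gpx2 on day 5 in Cpa3Cre/+, Hnmt for immunized against naive in Cpa3Cre/+, and 10 list genes for any difference among the groups. The share of all genes that DESeq2 called is not given here, so the 10 cannot be read as particular to the lists. The smallest adjusted p was that of Ppara, which encodes a nuclear receptor for fatty acids, on day 5 against immunized over genotypes (log2 fold change -1.37 ± 0.44, adjusted p = 0.113). It had 11.97, 15.95 and 11 CPM in Cpa3Cre/+ on day 5, against 55.21 and 30.14 CPM after immunization. In Cpa3+/+ it had 34.34 and 8.207 CPM on day 5, against 32.77 and 51.04 CPM after immunization. The states overlapped in Cpa3+/+ and not in Cpa3Cre/+. Without the 3 libraries apart, 13 of the 84 list genes (15.5%) passed on day 5 over genotypes, 1 higher and 12 lower, against 18.6% of all genes. The list genes thus passed no more often than all genes did. The share of all genes that was lower is not given here, so the counts by list cannot be read as particular to a list. By list the lower ones were 4 of 9 genes of conjugate removal, 2 of 13 other conjugating enzymes, 2 of 10 PXR and CAR targets, 2 of 15 sensors and factors, 1 of 13 genes of cosubstrate supply, 1 of 15 NRF2 targets and 0 of 10 efflux transporters. Those of conjugate removal were Arsa, a sulfatase, Ggt1, which cleaves glutathione conjugates, and the aminoacylases Acy1 and Acy3. Ggt1 had 480.9, 395.8 and 1311 CPM in Cpa3Cre/+ on day 5, against 921.2 and 932 CPM after immunization, and the highest of these is the library apart. In Cpa3+/+ it had 239.3 and 313.6 CPM on day 5, against 607.2 and 658.5 CPM after immunization. The enterocyte marker sum, though not every marker in it, was lower on day 5 as well in the libraries left. The part of the sum in these results was not tested. Of the 18 comparisons of a single difference, those of day 5 against immunized, over genotypes and within each, were the only ones with calls in the lists without the 3 libraries.

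In the genotype comparisons, the list genes with the smallest p were Glyat, a glycine conjugation enzyme, over the states (0.66) and after immunization (1.69), the efflux pump gene Abcb1a in the naive state (-1.43), Gclc, the catalytic subunit of the first enzyme of glutathione synthesis, on day 1 (-0.98 ± 0.30), the histamine methyltransferase Hnmt on day 3 (0.84), and Papss2, which makes the sulfate donor PAPS, on day 5 (1.81 ± 0.60). None passed the adjusted test. Papss2 had 699, 766.1 and 1005 CPM in Cpa3Cre/+ on day 5, against 153.5 and 315.2 CPM in Cpa3+/+, with no overlap. The 10 PXR and CAR targets leaned as the conjugating enzymes did, with a median log2 fold change of -0.762 in the naive state, 0.599 after immunization (10 above 0), -1.10 on day 1 (0 above 0), -0.0474 on day 3 and 0.90 on day 5 (10 above 0), and 0 of 10 called in each. These medians, without the 3 libraries apart, were 0.0495, 0.699, -0.543, 0.0987 and 0.247. The naive median thus changed sign, as that of the conjugating enzymes did. The part of the enterocyte marker sum, which differed in the same directions after immunization and on days 1 and 5, was not tested.

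Against the immunized state and over genotypes, the smallest p among the list genes belonged to the nuclear receptor gene Hnf4g on day 1 (-0.64) and Ppara on day 3 (-1.51), and against naive to Hnmt after immunization (-1.16, adjusted p = 0.377). Within Cpa3Cre/+ it belonged to Hnmt after immunization (-1.84) and on day 3 (1.32), the retinal dehydrogenase gene Aldh1a1 on day 1 (-1.20) and the glutathione peroxidase gene Gpx2 on day 5 (1.74). Within Cpa3+/+ it belonged to the cystine transporter gene Slc7a11 after immunization (2.01), Nr1i3, which encodes the receptor CAR, on day 1 (1.24), Hnf4g on day 3 (-1.20) and the NRF2 target Osgin1 on day 5 (-1.47). In the joint tests it belonged to Papss2 for the difference of responses (unadjusted p = 0.00767 by edgeR) and to the malic enzyme gene Me1 for any difference (unadjusted p = 0.0077 by edgeR). None of these passed the adjusted test by edgeR.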

How the data were processed

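Libraries were prepared with a stranded Illumina TruSeq kit, according to the labels. STAR (alignment) and featureCounts of Subread 1.5.1 (counting), with the builds mm10 and GRCm38, are named in the submitters' processing notes. The deposited table holds the authors' raw counts per Ensembl gene. The strand setting, the treatment of reads that match several genes and the annotation release are not given in the sources used here. Symbols came from GENCODE vM21 for 55227 of 55487 genes; the 260 others held 0.00137% of counts.

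The counts were tested with edgeR 4.0.16 in R 4.3.3 (robust quasi-likelihood F test, TMM factors, filterByExpr by group, 10 group means plus sex, 12 residual degrees of freedom), adjusted by Benjamini-Hochberg over 17236 genes at 0.05, two-sided. The script was tested on simulated data. Each SE was obtained by dividing the size of the log2 fold change by the root of its F statistic. CPM uses TMM factors. Alternatives were DESeq2 1.42.0, its size factors, no filter, no sex term, females alone, a replicate block and each library left out. Correlations used log2(CPM + 0.5) and 100000 permutations (smallest p 1e-05), 2-sided.

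The members, gene lists and tests were chosen with earlier results of these data known. Named members are, per family, the 3 with the highest mean CPM, every member called in a comparison and, in each comparison, the 2 with the smallest p; from the other lists, the called genes or else the gene with the smallest p. Genes named for their spread, their relation to marker sums, their counts below the filter or their p under 0.05 were chosen after their values were seen. Of the lists, 1 gene is not reported here.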

Additional observations from a re-analysis of the deposited data

How the results depend on the processing

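Over 30 alternatives, 572 of 600 counts of called members were within 1.5 times the main count, which was 0 in all 20 comparisons. The filter on low counts moved most of the others: without it, 1 member was called in the naive genotype comparison, 2 after immunization, 4 on day 1 and 7 on day 5. In the comparisons over genotypes it called 1 each for immunized against naive and for days 1, 3 and 5 against immunized. Within Cpa3Cre/+ it called 6 for immunized against naive and 1 on day 1; within Cpa3+/+ it called 1 for immunized against naive, 3 on day 1 and 1 on day 3. It called 11 for the difference of responses and 17 for any difference. That fit covered 32067 genes in place of 17236, with an infinite in place of 5.5 prior degrees of freedom. The share of all genes it called is not given here, so its counts cannot be read as particular to the members. Females alone moved the counts for immunized against naive over genotypes and within Cpa3Cre/+. These counts are not given, since only naive replicate 1, a library apart, and immunized replicate 2 of Cpa3Cre/+ are female. In that setting Ugt1a7c differed by 2.42 within Cpa3Cre/+, against 1.20 with all libraries. DESeq2 gave 1 on day 5 over genotypes, 1 on day 1 in Cpa3+/+ and 1 for any difference. Without the sex term 1 was called on day 5 (Gstm5, adjusted p = 0.0445). Without the 3 libraries apart, an alternative chosen after seeing the data, 9 were called on day 5 over genotypes, 2 in Cpa3Cre/+, 2 in Cpa3+/+ and 2 for any difference. Leaving out 1 library gave 0 to 3 for immunized against naive over genotypes, 0 to 8 for it in Cpa3Cre/+ and 0 to 1 on day 5 over genotypes. The 8 came without Cpa3Cre/+ naive replicate 2, which leaves the library lowest in enterocyte markers, and the 1 without Cpa3+/+ day 1 replicate 2. Without Cpa3Cre/+ naive replicate 2, the naive Cpa3Cre/+ group rests on 1 library, a female one. The part of the enterocyte markers therefore cannot be told from other features of that library. The cause of the shifts in counts, this one included, was not tested. Among the alternatives, the share of all genes called is given only without the 3 libraries apart, for day 5 over genotypes. The other counts of called members therefore cannot be read as particular to the members. DESeq2's size factors and the replicate block moved no count. Under the replicate block Gstm5 on day 5 differed by 0.58 (adjusted p = 0.145 by edgeR), and the replicate numbers did not pair the libraries: deviations of the 93 pairs with the same number had correlations from -0.314 to 0.564 (median -0.00547), 18 of them over 0.1. Of 1080 values of named members 1 reversed, Gstm4 after immunization, which ranged from -0.011 without Cpa3Cre/+ immunized replicate 2 to 1.36 without replicate 1, and 22 gained a call. Most groups hold 2 libraries, so the 95% interval of a genotype difference within a state reached 0.88 to 1.01 log2 units to each side at the median member.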
